A study of Mus musculus with 4 samples.

Results

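Cell cycle inhibitors and quiescence genes were followed in the gastrocnemius muscle of mice whose muscle lacks FoxO1,3,4 (FoxO1,3,4-/-) and of their controls (FoxO1,3,4 f/f). The 10 genes were Cdkn1a, Cdkn1b, Cdkn1c, Cdkn2c, Ccng1, Ccng2, Btg1, Btg2, Rbl2 and Ccnd1, taken by name for their roles in the cell cycle. These genes were chosen with earlier results of these data known, so their counts beside all genes are only descriptions. They were found through the platform annotation as 21 single-gene probe sets of 45037 on the array, and all 10 genes were among the 12565 genes that passed a filter on dim signals. The 4 groups were starved knockout, fed knockout, starved control and fed control muscle, with 1 array each. The knockout mice carried floxed FoxO1, FoxO3 and FoxO4 alleles and Cre recombinase under the MLC1f promoter, which, per the study, drives expression in type II but not type I fibres. The control mice are the floxed animals without Cre in the study's naming, and the sample labels call them wild type. All animals were males of a cross between C57BL/6N and FVBN, and the methods give an age of 2 to 4 months for all experiments. Starved animals went without food for 24 h with free access to water, and fed animals had both. RNA of 6 muscles from 3 mice was pooled in equal amounts for each array, so that no array has a replicate and no difference below has a test or a p-value.

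Cyclin-dependent kinases (CDKs) with their cyclins drive a cell through its division cycle, and the products of most of these genes hold that cycle back. Cdkn1a (p21), Cdkn1b (p27) and Cdkn1c (p57) are inhibitors of the Cip/Kip family, which bind cyclin-CDK complexes, and Cdkn2c (p18) is an INK4 inhibitor of CDK4 and CDK6. Rbl2 (p130) is a pocket protein that silences cell cycle genes in resting cells. Ccng1 and Ccng2 encode unusual cyclins that do not drive the cycle, and Btg1 and Btg2 are antiproliferative partners of the CCR4-NOT complex, which shortens messenger RNA tails. Ccnd1, cyclin D1, is the activator of CDK4 and CDK6 and stands on the other side of the balance. The nuclei of muscle fibres have left the cell cycle for good. In cultured cells of other kinds Cdkn1a, Cdkn1b, Ccng2, Btg1, Rbl2 and Ccnd1 are known targets of FoxO factors.

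The signals were made by the authors with the MAS 5.0 algorithm and are on a linear scale. Foxo4 was at 34.3 and 31.3 on the starved and fed knockout arrays, against 291.3 and 296.9 on the starved and fed control arrays on its brightest probe set. Foxo1 was at 165.5 and 185.2 on the starved and fed knockout arrays, against 554.4 and 303.8 on the starved and fed control arrays. Foxo3 was at 460.9 and 297.3 on the starved and fed knockout arrays, against 477.8 and 250.1 on the starved and fed control arrays, and where the probe sets lie relative to the deleted parts was not analysed. Over all genes the median log2 ratio of knockout over control was -0.16 in starved and -0.20 in fed muscle, so that the knockout arrays were dimmer as a whole. Without replicates, the one measure of error was how far probe sets for a single gene disagreed. This scatter, as the SD of the log2 starved over fed ratio, was 0.156 in knockout and 0.161 in control muscle in the highest of 5 signal classes, and 0.747 and 0.76 in the lowest, and it leaves out differences between mice and between pools. All 11 markers of muscle fibres passed the filter, and their summed signal lay between 141810 and 150868 on the 4 arrays. The summed signal of 9 hair shaft genes was 1925.3 on the starved knockout and 124.2 on the fed knockout array, against 58.7 on the starved control and 1173.0 on the fed control array, and that of 7 epidermis genes ran from 362.7 on the fed control to 1234.2 on the fed knockout array. The part of hair and skin in the members' signals was not tested.

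Promoter sequences were read for 8 of the 10 members from RefSeq (mouse build GRCm38.p6), as the 250 bases before the transcription start on the gene's own strand. The sequences below are those of Btg1, Btg2 and Cdkn1a, whose windows held a searched motif, and of Rbl2 and Ccng2, members with a larger starvation response in control than in knockout muscle. Capitals mark the matches.
Btg1: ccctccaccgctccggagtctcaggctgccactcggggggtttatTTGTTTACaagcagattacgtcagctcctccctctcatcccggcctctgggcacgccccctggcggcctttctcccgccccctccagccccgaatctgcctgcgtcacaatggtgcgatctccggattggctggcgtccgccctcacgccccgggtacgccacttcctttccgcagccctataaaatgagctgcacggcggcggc
Btg2: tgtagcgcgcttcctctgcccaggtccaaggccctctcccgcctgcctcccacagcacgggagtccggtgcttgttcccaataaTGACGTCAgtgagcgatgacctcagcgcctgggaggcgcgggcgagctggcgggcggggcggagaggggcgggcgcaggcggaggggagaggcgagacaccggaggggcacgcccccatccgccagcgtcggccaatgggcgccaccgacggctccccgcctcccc
Cdkn1a: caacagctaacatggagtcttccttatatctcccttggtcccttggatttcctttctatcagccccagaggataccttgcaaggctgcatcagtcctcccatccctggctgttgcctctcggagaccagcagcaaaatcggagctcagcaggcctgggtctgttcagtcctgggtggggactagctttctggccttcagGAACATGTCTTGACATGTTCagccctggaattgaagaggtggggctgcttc
Rbl2: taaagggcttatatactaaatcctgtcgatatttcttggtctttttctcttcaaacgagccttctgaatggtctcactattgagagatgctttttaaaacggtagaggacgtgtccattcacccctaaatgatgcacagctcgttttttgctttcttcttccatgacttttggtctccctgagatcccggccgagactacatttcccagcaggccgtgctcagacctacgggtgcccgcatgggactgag
Ccng2: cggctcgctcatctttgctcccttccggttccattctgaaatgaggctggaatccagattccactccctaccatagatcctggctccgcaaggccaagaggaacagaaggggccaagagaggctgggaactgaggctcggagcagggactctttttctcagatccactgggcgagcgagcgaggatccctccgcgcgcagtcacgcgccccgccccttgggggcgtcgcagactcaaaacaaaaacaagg
The Btg1 window lies at chr10:96616751-96617000 on the plus strand, Btg2 at chr1:134079156-134079405 on the minus strand, Cdkn1a at chr17:29090729-29090978, Rbl2 at chr8:91069807-91070056 and Ccng2 at chr5:93267323-93267572, all 3 on the plus strand. Searched on both strands were the FoxO binding element GTAAACAA, its shorter forkhead core GTAAACA, which the element contains, the cAMP response element TGACGTCA and the palindromic glucocorticoid response element. The Btg1 window held the FoxO element in reverse, TTGTTTAC, at 205 to 198 bases before the start, and 1.07% of 32851 promoter windows of this length hold it, while 3.17% hold the core. The Btg2 window held the cAMP response element at 166 to 159 bases before the start, as do 1.55% of all windows. The Cdkn1a window, that of the more upstream of its 2 annotated starts, held a p53 response element with at most 1 mismatch at 51 to 32 bases before the start, as do 0.0457% of all windows. The window of the other Cdkn1a start, not printed here, held no searched motif. The p53 search was added after the Cdkn1a sequence had been read. The glucocorticoid element is in 0.00913% of all windows and in none of the members' windows. These are matches of letters and not binding sites, and the absence of a match in these windows says nothing on binding elsewhere.

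On starvation, 1 of the 10 members passed 1.5-fold up in knockout muscle and 4 of 10 did so in control muscle. Cdkn1a was the member that passed in both genotypes, and Btg2, Rbl2 and Ccng2 passed in control muscle only, a difference that has no test. Ccnd1 was the single member past 1.5-fold down, in control muscle. Among all 12565 genes, 7.39% were up and 9.45% down at 1.5-fold on starvation in knockout muscle, while control muscle had 9.23% up and 14.2% down, which makes 16.8% and 23.5% in either direction. The median log2 ratio of the 10 members was 0.13 in knockout and 0.39 in control muscle, beside -0.06 and -0.11 over all genes. The brightest probe set on average stands for each gene, and the other probe sets are given with each member.

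Cdkn1a, which encodes the p53-induced inhibitor p21, had the largest starvation ratio of the members in both genotypes. Its signal was 2347.1 in starved and 376.8 in fed knockout muscle, against 1218.2 in starved and 264.4 in fed control muscle. Both starved arrays stood above both fed arrays, and within each feeding state the knockout array was the higher. The starved over fed ratio was 6.23 in knockout and 4.61 in control muscle. The second Cdkn1a probe set was at 1410.9 and 228.4 on the starved and fed knockout arrays and at 730.0 and 146.3 on the starved and fed control arrays, with ratios of 6.18 and 4.99. The log2 responses of the genotypes differed by 0.44 on the first and 0.31 on the second probe set, knockout minus control, where the scatter between probe sets gives an SD of 0.197.

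**Figure D1:**
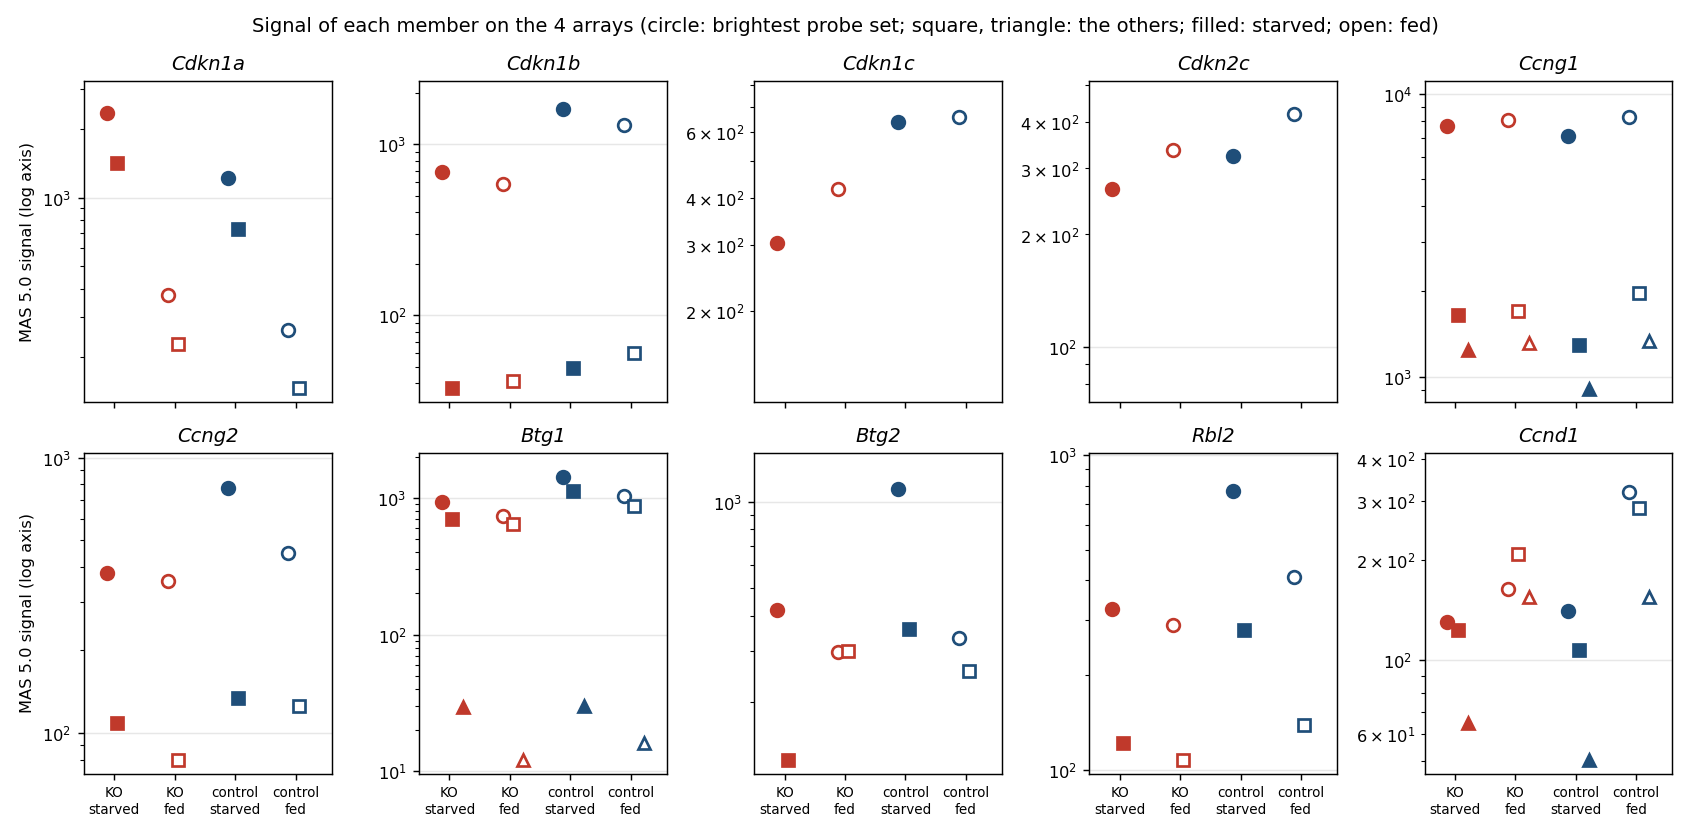
MAS 5.0 signal (log axis) of the 21 probe sets of the 10 members on the starved knockout, fed knockout, starved control and fed control array, with 1 array per condition. Filled symbols are starved and open symbols fed muscle, red is knockout and blue control, and circles are the brightest probe set of each gene; Cdkn1a is higher on both starved than on both fed arrays, while Cdkn1b and Cdkn1c are lower on both knockout arrays than on both control arrays.

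Rbl2, the pocket protein p130, gave the same picture on both of its probe sets. The brighter was at 325.4 in starved and 289.1 in fed knockout muscle, against 769.3 in starved and 411.3 in fed control muscle. The dimmer was at 121.9 and 107.5 in starved and fed knockout muscle, against 277.9 and 139.6 in starved and fed control muscle. On both probe sets the starved control array stood apart above the other 3. The ratio on starvation was 1.13 on both probe sets in knockout muscle and 1.87 and 1.99 in control muscle, and the log2 responses differed by -0.73 and -0.81, beside a scatter SD of 0.197 and 0.273.

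Btg2, an antiproliferative gene that is both a p53 target and an immediate early gene, had the largest difference between the genotypes' responses among the members. Its brighter probe set was at 418.6 in starved and 298.6 in fed knockout muscle, against 1109.0 in starved and 334.5 in fed control muscle. The ratio was 1.40 in knockout and 3.32 in control muscle, a log2 difference of -1.24 with a scatter SD of 0.197. The dimmer probe set was at 125.2 and 301.3 in starved and fed knockout muscle and at 359.1 and 257.3 in starved and fed control muscle, which gives ratios of 0.416 and 1.40. The starved control array was the highest on both probe sets, and the starved knockout array was the lowest on the dimmer one only. The probe sets thus disagree on the direction of the Btg2 response in knockout muscle, and agree that it was lower than in control muscle.

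Ccng2, cyclin G2, passed 1.5-fold in control muscle on 1 of its 2 probe sets. The brighter was at 379.4 in starved and 355.1 in fed knockout muscle, against 775.7 in starved and 450.0 in fed control muscle, with ratios of 1.07 and 1.72. The dimmer was at 108.5 and 79.6 in starved and fed knockout muscle and at 133.8 and 125.7 in starved and fed control muscle, with ratios of 1.36 and 1.06. The probe sets ranked the arrays alike, with the starved control array first and the fed knockout array last. They differed on which genotype had the larger response, so that the order of the genotypes for Ccng2 rests on the brighter probe set.

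Ccnd1, the member that promotes the cycle, was lower after starvation on all 3 probe sets in both genotypes. The brightest was at 130.5 in starved and 162.9 in fed knockout muscle, against 140.8 in starved and 317.6 in fed control muscle, with ratios of 0.801 and 0.443. The ratios were 0.594 and 0.376 on the second probe set and 0.42 and 0.326 on the third, in knockout and control muscle. The decrease was thus past 1.5-fold on 3 of 3 probe sets in control and on 2 of 3 in knockout muscle, and the log2 response was higher in knockout muscle by 0.85, 0.66 and 0.37. The summed signal of 8 endothelial markers was 2771.5 and 2726.5 in starved and fed knockout muscle and 3250.2 and 3494.4 in starved and fed control muscle. That of 7 fibroblast markers was 35835.8 and 42124.9 in starved and fed knockout muscle and 38322.6 and 45335.1 in starved and fed control muscle, most of it from Dcn and Gsn, which stayed under 1.5-fold. Of these 7 markers, 4 were past 1.5-fold down on starvation in knockout and 3 in control muscle, as Ccnd1 was in control muscle. The collagen gene Col3a1 was at 2615.3 in starved and 5615.9 in fed knockout muscle, against 3377.6 in starved and 6296.2 in fed control muscle. In these bulk samples, fewer cells of a type and less RNA per cell cannot be told apart, and the part of other cell types in the Ccnd1 signal was not tested.

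Btg1, the relative of Btg2, stayed under 1.5-fold in both genotypes on its 2 bright probe sets. The brightest was at 937.6 in starved and 738.1 in fed knockout muscle, against 1410.4 in starved and 1027.2 in fed control muscle, with ratios of 1.27 and 1.37. The next had ratios of 1.09 and 1.29. A dim probe set, with signals from 12.2 to 30.2, had ratios of 2.44 in knockout and 1.88 in control muscle, where the scatter SD of the log2 ratio is 0.747 and 0.76. On the brightest probe set the log2 responses differed by -0.11, within the scatter SD of 0.197.

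Among the remaining inhibitors the starvation ratios stayed under 1.5-fold on every probe set. Cdkn1b had ratios of 1.17 in knockout and 1.25 in control muscle on its bright probe set, and 0.906 and 0.817 on a dim one. Cdkn1c had 0.721 and 0.971, and Cdkn2c had 0.784 and 0.776, each on its only probe set. For Cdkn2c the log2 responses of the genotypes differed by 0.01. Ccng1, cyclin G1, had ratios of 0.954 in knockout and 0.858 in control muscle on its brightest probe set. Its other 2 probe sets had 0.971 and 0.949 in knockout muscle and 0.655 and 0.678 in control muscle, so that 1 of 3 was past 1.5-fold down in control muscle and none in knockout muscle.

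**Figure D2:**
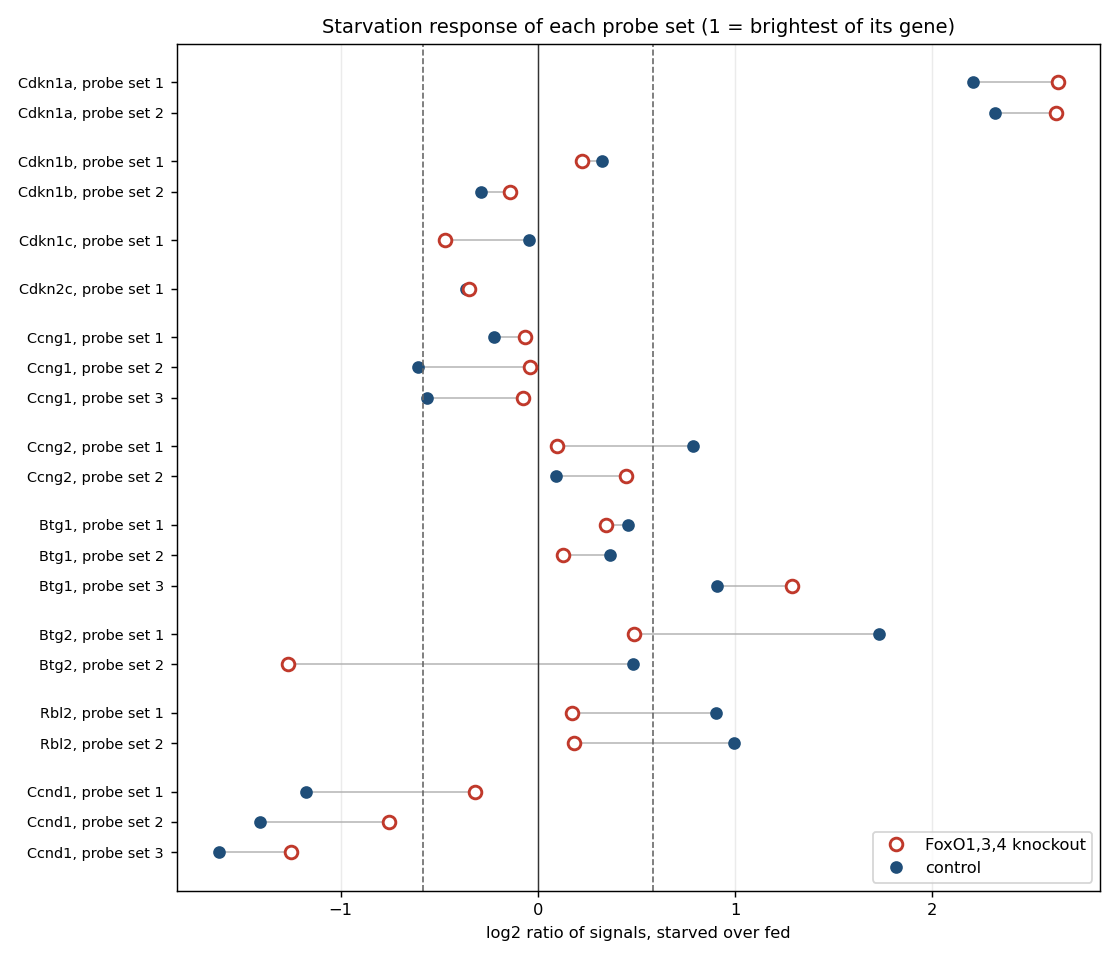
Log2 ratio of signals, starved over fed, for each of the 21 probe sets, with open red points for FoxO1,3,4 knockout and filled blue points for control muscle (1 pooled array each). The dashed lines stand at ratios of 1.5-fold. Rbl2 has log2 ratios of 0.17 and 0.18 in knockout and 0.90 and 0.99 in control muscle, while the highest Cdkn1a point is at 2.64, in knockout muscle.

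A starvation response that differed by at least 1.5-fold between the genotypes was found for 4 of the 10 members. It was lower in knockout muscle for Btg2, Rbl2 and Ccng2 and higher, that is less negative, for Ccnd1. Of all genes, 10.4% had a response lower by 1.5-fold and 12.3% a response higher by 1.5-fold in knockout muscle. Genes up at 1.5-fold in control muscle and under it in knockout muscle made up 6.6% of all genes and 3 of the 10 members.

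Between the genotypes, 8 of the 10 members were lower by any amount in starved knockout than in starved control muscle, and 9 of 10 in fed muscle. The median difference was larger in starved muscle. How many of all genes were lower by any amount was not counted. In starved muscle 6 of the 10 members were past 1.5-fold lower in the knockout, namely Btg2, Rbl2, Cdkn1b, Cdkn1c, Ccng2 and Btg1, and 1, Cdkn1a, was past 1.5-fold higher. In fed muscle 3 of 10 were past 1.5-fold lower, Cdkn1b, Ccnd1 and Cdkn1c, and none was higher. Of all genes, 14.6% were lower and 6.39% higher in starved knockout over starved control muscle, and 11.3% were lower and 3.38% higher in fed knockout against fed control muscle, which makes 21% and 14.7% in either direction. The median log2 ratio of the members was -0.81 in starved and -0.41 in fed muscle, beside the medians of -0.16 and -0.20 over all genes. These comparisons share arrays with those on starvation, and their counts are not separate evidence.

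Cdkn1b and Cdkn1c, the inhibitors p27 and p57, were past 1.5-fold lower in the knockout in both feeding states, as were 3.35% of all genes. Cdkn1b was at 688.6 in starved and 589.4 in fed knockout muscle, against 1618.8 in starved and 1293.9 in fed control muscle. Both knockout arrays stood below both control arrays, and the knockout over control ratio was 0.425 in starved and 0.456 in fed muscle. Relative to the median of all genes the log2 ratio was -1.07 in starved and -0.94 in fed muscle. The dim Cdkn1b probe set was at 37.5 and 41.4 in starved and fed knockout muscle and at 49.2 and 60.2 in starved and fed control muscle, with ratios of 0.762 and 0.688, the same direction but under 1.5-fold.

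Cdkn1c, an imprinted gene, was at 303.5 in starved and 421.1 in fed knockout muscle, against 637.9 in starved and 657.1 in fed control muscle. The ratio was 0.476 in starved and 0.641 in fed muscle, and the log2 ratio relative to all genes was -0.91 and -0.45. After scaling all arrays to a common median the fed value was -0.50 and no longer past 1.5-fold. The summed signal of 7 macrophage markers was 4295.9 in starved and 4567.1 in fed knockout muscle, against 5766.7 in starved and 5806.8 in fed control muscle. That of 4 of 6 adipocyte markers was 3417.7 in starved and 4041.5 in fed knockout muscle, against 5820.3 in starved and 5107.7 in fed control muscle. Most of these sums came from Lyz2 and Csf1r and from Adipoq. Past 1.5-fold lower in the knockout were 1 of the 7 macrophage markers in starved and 0 in fed muscle. Of the 4 adipocyte markers it was 3 in starved and 2 in fed muscle, beside 14.6% and 11.3% of all genes. Cd68 and Lep were higher in starved knockout than in starved control muscle. None of these markers was at 0, and their part in the Cdkn1b and Cdkn1c ratios was not tested.

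Rbl2, Btg2 and Ccng2 were nearer to control in fed than in starved muscle. The knockout over control ratio of Rbl2 was 0.423 and 0.439 in starved and 0.703 and 0.77 in fed muscle on its 2 probe sets. That of Btg2 was 0.378 and 0.349 in starved and 0.893 and 1.17 in fed muscle. Ccng2 had 0.489 and 0.811 in starved and 0.789 and 0.633 in fed muscle, so that its dimmer probe set ran the other way. On its brightest probe set Btg1 was at 0.665 of control in starved muscle, just past the threshold of 0.667, and at 0.719 in fed muscle. Its next probe set was at 0.6235 and 0.736 in starved and fed muscle, and the dim one at 0.987 and 0.758. With all arrays at a common median the log2 ratio of the brightest Btg1 probe set in starved muscle was -0.41 and no longer past 1.5-fold.

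Cdkn1a was the one member past 1.5-fold higher in the knockout, in starved muscle. The ratio was 1.93 in starved muscle on both probe sets, and 1.43 and 1.56 in fed muscle. Relative to all genes the log2 ratio of the brighter probe set was 1.11 in starved and 0.71 in fed muscle, and after scaling to a common median the fed value of 0.66 was past 1.5-fold. Ccnd1 was lower in fed knockout muscle on its brightest probe set, with a ratio of 0.513, but the ratio was 0.726 and 1.00 on the others, and in starved muscle the 3 lay between 0.927 and 1.30. Cdkn2c had ratios of 0.813 in starved and 0.805 in fed muscle, and the brightest Ccng1 probe set 1.09 and 0.978.

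**Figure D3:**
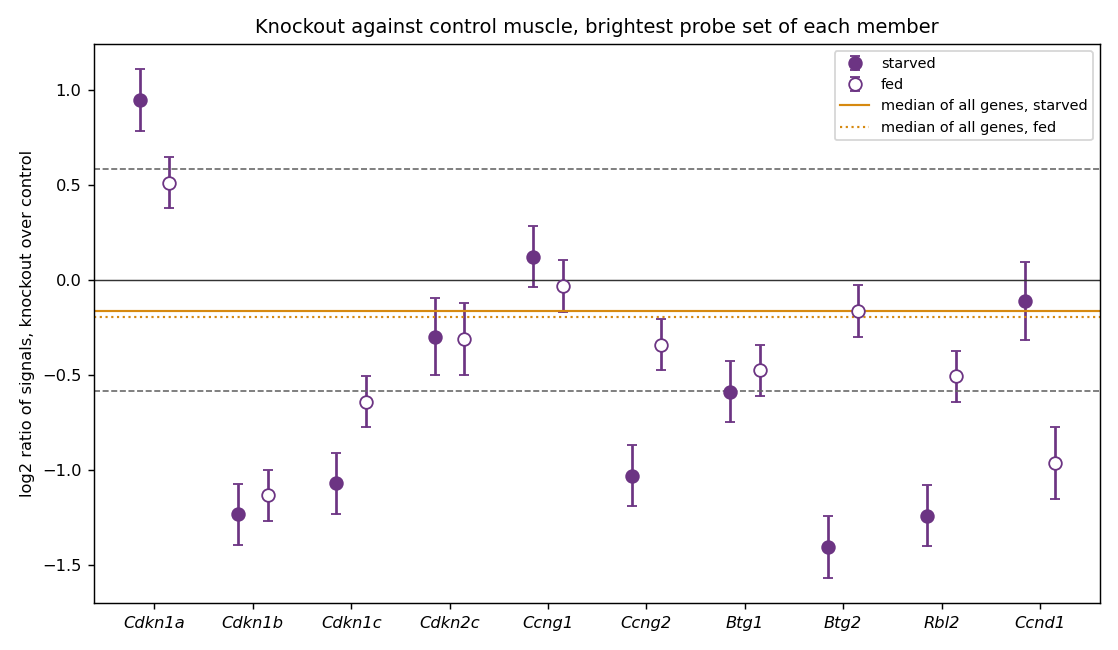
Log2 ratio of signals, knockout over control, for the brightest probe set of each member, with filled points for starved and open points for fed muscle. Bars are the SD of the scatter between probe sets of genes of like signal, dashed lines mark 1.5-fold and orange lines the median of all genes, at -0.16 and -0.20; Cdkn1a is the member above the upper dashed line, in starved muscle.

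Lists of related cell cycle genes, chosen with earlier results of these data known, were read beside the members. For their counts, the shares over all genes on starvation were 7.39% up and 9.45% down in knockout muscle. In control muscle the shares were 9.23% up and 14.2% down. Of 6 CDK inhibitors measured, Cdkn1a was the only gene past 1.5-fold up on starvation in either genotype, and Cdkn2b, the inhibitor p15, was the only one down, with 37.3 in starved and 60.2 in fed knockout muscle, against 44.3 in starved and 89.9 in fed control muscle. Of 13 pocket protein and DREAM complex genes, which silence the cycle in resting cells, none was up in knockout muscle and 3 were up in control muscle. These were Rbl2, Lin54, a DNA-binding subunit of the complex, and Tfdp2, a dimer partner of the E2F factors. Lin54 was at 124.7 and 115.3 in starved and fed knockout muscle, against 243.9 and 125.8 in starved and fed control muscle. Tfdp2 had a log2 starvation ratio of 0.58 in knockout muscle, just under the threshold of 0.585, and 1.16 in control muscle, and with arrays scaled to a common median 1 gene of the list was up in knockout muscle. The median log2 response of this list was -0.02 in knockout and 0.26 in control muscle, and 10 of the 13 had the lower response in the knockout. How many of all genes had a lower response was not counted. The 10 include dim genes such as E2f4, with signals from 14.1 to 44.

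Of 10 genes of the BTG/TOB family and the CCR4-NOT complex, 1 was up in knockout muscle, the complex subunit gene Cnot3, whose other probe set was at -0.63, and 2 were up in control muscle, Btg2 and Tob2. Tob2 was at 1221.5 in starved and 1213.1 in fed knockout muscle, against 1515.0 in starved and 963.3 in fed control muscle. The control log2 ratios of its 5 probe sets ran from -0.36 to 0.82, and with the mean over probe sets 1 gene of the list was up in control muscle. Tob1 had log2 starvation ratios of -0.18 in knockout and -0.64 in control muscle on its brightest probe set, and -1.64 and -1.60 on its other. Of the 3 G and I cyclins none was up in knockout muscle and 1, Ccng2, was up in control muscle. Cyclin I, encoded by Ccni and a relative of the G cyclins, had 0.09 and 0.02 on its brightest probe set, and its 4 probe sets lay between -0.11 and 1.09 in knockout muscle.

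Among 10 G1 cyclin and CDK genes measured, 2 were down on starvation in each genotype and none was up. In control muscle 1 of the 2 was the member Ccnd1. The number down ran from 1 to 4 in knockout and from 1 to 3 in control muscle over the alternatives other than the 2-fold threshold. With no filter 1 was up in each genotype. Ccnd2, cyclin D2, had log2 ratios of -0.42 in knockout and -0.60 in control muscle, and Ccnd3 had -0.78 and -0.32. The 7 Ccnd2 probe sets were all below 0 in knockout muscle and lay between -0.90 and 0.33 in control muscle, and the 3 of Ccnd3 ran in both directions in both genotypes. E2f1 had -3.10 in knockout and -0.51 in control muscle, from signals of 4.1 and 35.2 against 22 and 31.4, where the array medians ran from 22.9 to 26.3. Of 13 S phase and mitosis genes that passed the filter, 3 were up and 2 down in knockout muscle and none was up and 6 down in control muscle. With no filter 7 were up and 6 down in knockout muscle and 3 up and 10 down in control muscle. With a filter at the 75th percentile 1 was up and 1 down in knockout muscle and none up and 2 down in control muscle. The control median, -0.51 as reported, was 0.04 with no filter. The 6 down in control muscle include Foxm1 and another dim gene, which both passed the filter through the fed control array alone. Foxm1 was at 22.5 in starved and 16.7 in fed knockout muscle, against 9.5 in starved and 42.4 in fed control muscle. Aurka, a mitotic kinase, was at 90.8 in starved and 207.1 in fed knockout muscle, against 47.0 in starved and 174.4 in fed control muscle. Of 7 genes for the turnover of p27 and p21, none was up in either genotype, and Rbx1 was down in knockout muscle, on a probe set with signals from 11.7 to 44.3.

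Of 19 p53 pathway genes measured, 3 were up and none down on starvation in knockout muscle, and 6 were up and 1 down in control muscle. The 19 include the members Cdkn1a, Btg2 and Ccng1. Cdkn1a is among those up in both genotypes and Btg2 among those up in control muscle, so these are not further genes. Eda2r, a receptor induced by p53, was at 272.1 in starved and 140.1 in fed knockout muscle, against 733.1 in starved and 193.6 in fed control muscle. Trp53inp1 was at 940.7 and 504.0 in starved and fed knockout muscle, against 1820.7 and 726.8 in starved and fed control muscle, and its other probe set had a log2 ratio of -0.25 in knockout muscle. Unlike Cdkn1a, both were lower in starved knockout than in starved control muscle. In that comparison 1 of the 19 was past 1.5-fold higher and 5 were past it lower, beside 6.39% and 14.6% of all genes. Its median log2 ratio over the list was 0.10, beside -0.16 over all genes, so the list did not run lower as a whole. The median log2 response of the list was 0.07 in knockout and -0.10 in control muscle, beside -0.06 and -0.11 over all genes. Of 15 FoxO cell cycle targets measured, 1 was up and 3 down in knockout muscle, and 6 were up and 4 were down in control muscle. Gadd45a, a growth arrest and DNA damage gene, had the largest difference between genotypes in this list and was at 205.9 in starved and 176.8 in fed knockout muscle, against 1494.5 in starved and 261.9 in fed control muscle. In the other direction Bcl6, a transcriptional repressor, was at 432.6 in starved and 662.3 in fed knockout muscle, against 361.9 in starved and 1000.5 in fed control muscle. This list contains several of the members.

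Btg2 also belongs to the immediate early genes, which are induced within minutes of a stimulus. Of 19 such genes, none was up and 4 were down on starvation in knockout muscle, while 13 were up and none down in control muscle. Over all genes the shares were 7.39% up and 9.45% down in knockout muscle, and 9.23% up and 14.2% down in control muscle. The response was lower in knockout than in control muscle for 19 of 19. How many of all genes had a lower response was not counted. The 19 include Fosb, which passed the filter through the starved control array alone. The median log2 response was -0.03 in knockout muscle (0.03 with arrays scaled to a common median) and 0.62 in control muscle. Fos was at 274.9 in starved and 675.6 in fed knockout muscle, against 1157.6 in starved and 410.1 in fed control muscle. Egr1 was at 341.7 and 877.2 in starved and fed knockout muscle, against 1023.1 and 820.5 in starved and fed control muscle. In starved muscle 16 of the 19, Btg2 among them, were past 1.5-fold lower in the knockout, as were 14.6% of all genes. The list was chosen with earlier results of these data known.

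**Figure D4:**
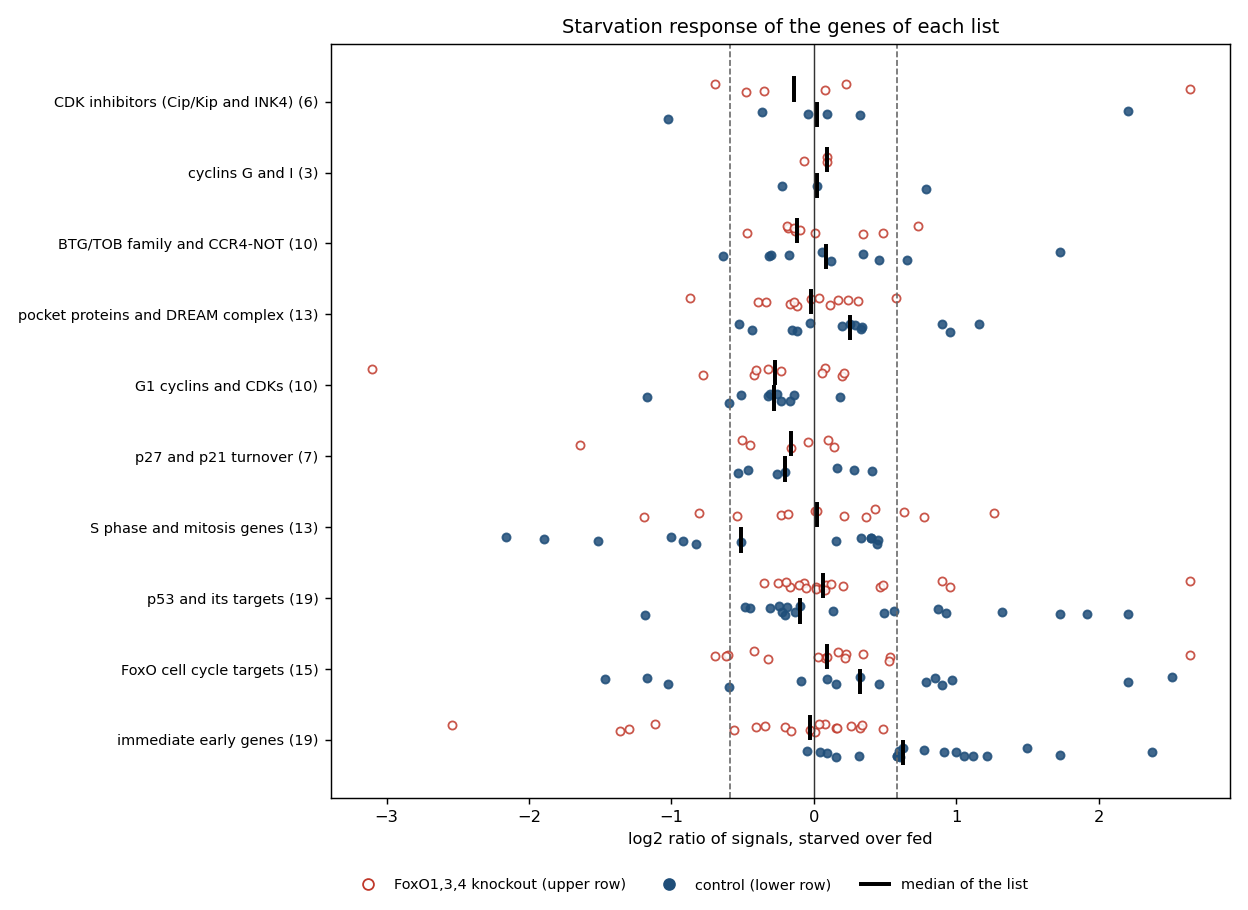
Log2 ratio of signals, starved over fed, for each measured gene of 10 lists, with the number of genes in brackets, open red points for FoxO1,3,4 knockout (upper row) and filled blue points for control muscle (lower row), and a black bar for the median. Dashed lines mark 1.5-fold; the immediate early genes have medians of -0.03 in knockout (0.03 after scaling) and 0.62 in control muscle, and the S phase and mitosis genes 0.02 and -0.51, the last being 0.04 with no filter on dim signals.

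The genes with the most similar profile over the 4 arrays were found for the 3 members with the widest range, by the distance between log2 signals centred on their mean. With 4 arrays many genes share a profile by arithmetic alone, and the distances are a description. For Cdkn1a, whose log2 signal spanned 3.15, the nearest were the metallothionein gene Mt2 at a distance of 0.284, the glucocorticoid-induced gene Fkbp5 at 0.426, Mt1 at 0.72, the lipid droplet gene Plin5 at 0.742 and Fbp2, the muscle fructose bisphosphatase, at 0.809. Fkbp5 was at 2447.8 in starved and 453.9 in fed knockout muscle, against 1372.4 in starved and 408.7 in fed control muscle, the same order as for Cdkn1a. For Btg2, which spanned 1.89, the nearest were Nxpe3 at 0.17, Snhg1 at 0.234, Vegfd at 0.24, Gucd1 at 0.276 and Sik1, a salt-inducible kinase, at 0.282. For Cdkn1b, which spanned 1.46, they were Fam228b at 0.15, the extracellular glutathione peroxidase gene Gpx3 at 0.23, Ypel3 at 0.234, Lrrc2 at 0.242 and Castor2 at 0.257. Gpx3 was at 699.8 and 557.8 in starved and fed knockout muscle, against 1825.6 and 1185.7 in starved and fed control muscle.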

How the data were processed

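Each of the 4 mouse Affymetrix arrays was hybridized with pooled RNA of 6 gastrocnemius muscles (3 mice). The deposited values are signal intensities on a linear scale, which the authors made with the MAS 5.0 algorithm. Affymetrix Expression Console also stands in the submitters' processing notes. No source used here gives a scaling target or detection calls. Precision is limited by the number of arrays. Of 45037 probe sets other than Affymetrix controls, 34945 had 1 gene in the platform annotation, 932 several and 9160 none. For 34741 of the single-gene probe sets the symbol was read from RefSeq (GRCm38.p6) through the gene identifier, whether or not it differed. Probe sets below the 50th percentile of every array were left out, and the one with the highest mean signal stood for its gene, which left 12565 genes. Ratios of signals were computed with pandas 2.3.3 and numpy 2.4.6 under Python 3.11.15. Matplotlib 3.10.9 drew the figures. A signal under 0.1 was set to 0.1 before a logarithm. The threshold was 1.5-fold, as in the study's methods.

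The scatter SD came from the 2 brightest probe sets of each gene, in 5 classes of mean signal. The step that counts genes past the threshold was tested on simulated data. The members and the lists were chosen with earlier results of these data known. Genes of a list were named if they were among its 4 largest differences between genotypes or its 4 largest responses, and Foxo1, Foxo3 and Foxo4 were named as the check of the labels. Neighbours in profile were the 5 nearest genes among those reaching the 75th percentile on an array, without clone names. Alternatives were the scaling of the arrays, the filter, an offset of 16, the choice of probe set per gene and, for the members only, a 2-fold threshold.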

Additional observations from a re-analysis of the deposited data

Results flagged for a closer look

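The responses to starvation ran in opposite directions in the genotypes for the dimmer Btg2 probe set, with a log2 ratio of -1.27 in knockout and 0.48 in control muscle, a difference of -1.75. Among the genes of the lists, 3 passed 1.5-fold in opposite directions. Fos had -1.30 in knockout and 1.50 in control muscle, a difference of -2.79. Fosb had -2.54 in knockout and 2.38 in control muscle, a difference of -4.92, from signals of 2.7 and 15.7 in starved and fed knockout muscle, against 51.9 and 10 in starved and fed control muscle. It passed the filter through the starved control array alone, and its other 3 signals were below the array medians of 22.9 to 26.3, so that the sizes of these Fosb values are not firm. Mcm2, a subunit of the replicative helicase, had 1.26 in knockout muscle against a decrease past 1.5-fold in control muscle, a difference of 2.27, and another Mcm2 probe set was at -0.48 in knockout muscle. None of these differences was tested, since each condition has 1 array.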

How the results depend on the processing

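No paired analysis was possible because each condition has 1 array, and for the same reason no array could be left out. Of 80 counts of members under 8 alternatives, 70 stayed within 1.5 times the count as reported, whichever genes were called. Of 200 log2 ratios of members under the alternatives of scaling, offset and probe set, 148 moved by less than the scatter SD and 52 by at least that. On starvation in knockout muscle 2 members were up and 1 down with the mean over the probe sets of a gene (Btg1 and Ccnd1 were added), and 1 was down with the probe set brightest on the fed arrays, against 1 up and 0 down as reported. In fed knockout over fed control muscle 1 member, Cdkn1a, was up with arrays scaled to a common median and after quantile normalization, against 0. With a 2-fold threshold 2 members were up on starvation in control muscle, 1 was down in fed and 0 were up in starved knockout over control muscle, and 0 had a higher and 1, Btg2, a lower response in knockout muscle. No member's call changed direction. With the mean over probe sets Btg2 had a log2 starvation ratio of -0.39 in knockout and 1.11 in control muscle, and Ccng2, at 0.44 in control muscle, was not past 1.5-fold. Scaling to the same median moved the median log2 ratio of all genes to 0.02 in starved and -0.05 in fed knockout over control muscle. The number of immediate early genes up in control muscle ran from 11 to 14 over the 7 alternatives tried on the lists, and was 0 in knockout muscle under each. The 2-fold threshold was not tried on the lists. The median log2 ratio of the immediate early genes in control muscle, 0.62, lay just past the threshold of 0.585, so the count depends on that threshold.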
